A study of Mus musculus with 2 samples.

Results

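The T cell receptor constant genes *Trac*, *Trbc1*, *Trbc2*, *Trdc*, *Tcrg-C1*, *Tcrg-C2* and *Tcrg-C4* were followed through single blood cells of mice of 4 ages. All 7 genes were chosen by name, from the 38788 genes of the count table, and all 7 were present in it. The cells came from the blood, depleted of red blood cells, of 11 wildtype C57BL/6 J male mice that were about 10 weeks old (n = 2), 36 weeks (n = 3), 77 weeks (n = 3) or 99.1 to 101.1 weeks (n = 3, the oldest mice). No treatment was given, and each mouse was processed on a plate of its own, so that mouse and plate cannot be told apart. RNA was read by scM&T-seq, which measures full-length poly-A RNA and DNA methylation in the same cell. The 981 cells analysed had 157049 to 1222914 counts, with a median of 354514, and 978 of them carried a cell type given by the authors. The names were NveCD4T (85 cells), EffCD4T (45), MemCD4T (8) and RegT (13), together 151 CD4+ T-cells, and NveCd8T (72) and MemCD8T (106), together 178 CD8+ T-cells, beside 25 NK cells and 600 B-cells. Monocytes, neutrophils, basophils and a dendritic cell made up the rest.

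A T cell receptor is a pair of chains, each built by joining variable, joining and, for beta and delta, diversity segments to a constant gene. Most T cells carry an alpha chain, which ends in *Trac*, and a beta chain, which ends in *Trbc1* or *Trbc2*, whereas gamma delta T cells carry a delta chain ending in *Trdc* and a gamma chain ending in one of the *Tcrg-C* genes. The beta locus holds 2 clusters of joining segments, with *Trbj1* segments upstream of *Trbc1* and *Trbj2* segments between *Trbc1* and *Trbc2*. Constant gene RNA can also be made from a locus that yields no working chain, so a count does not show a receptor.

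On GRCm38, *Trac* lies on chromosome 14 at chr14:54220521-54224206 and *Trdc* upstream of it at chr14:54142851-54148868. *Trbc1* (chr6:41538218-41539881) and *Trbc2* (chr6:41546730-41548352) are neighbours on chromosome 6. *Tcrg-C1* (chr13:19214103-19217024), *Tcrg-C2* (chr13:19304649-19307551, on the minus strand) and *Tcrg-C4* (chr13:19344558-19352756) lie on chromosome 13. The other 6 genes are on the plus strand.

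The beta constant genes are near copies, which limits what a read can tell. Their coding parts, 518 bases each, differ at 23 positions and are 95.6% identical. Of the 75-base words of the *Trbc1* transcripts, 35.1% were also found in *Trbc2*, and 37.7% of those of *Trbc2* were found in *Trbc1*. A read that lies within a shared stretch cannot by itself be assigned to either gene. The reads were sequenced in pairs, and how often the other read of a pair tells the genes apart was not tested. *Trac*, *Trdc* and *Tcrg-C4* shared no such word with another constant gene, whereas *Tcrg-C1* shared 12.9% and *Tcrg-C2* 9.17% of theirs. The lines that follow give the first position at which the beta genes differ, coding bases 245 to 274, and the window with most differences, coding bases 479 to 508, to show how sparse the distinguishing bases are. Capitals mark the bases that differ, and positions count from the first coding base of the constant gene.
Trbc1, bases 245 to 274: ctggcacaatcctcgCaaccacttccgctg
Trbc2, bases 245 to 274: ctggcacaatcctcgAaaccacttccgctg
Trbc1, bases 479 to 508: tACActggtgGtgatggcTatggtcaaAaG
Trbc2, bases 479 to 508: tGGCctggtgCtgatggcCatggtcaaGaA
The first of these windows holds 1 difference and the other 7, and no further difference occurs between positions 260 and 383.

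Levels of the alpha and beta constant genes marked every annotated T-cell type, and NK cells carried beta constant counts with little *Trac*. Since the types were named from clusters of the same RNA, levels by type are given as a description, without a test. Levels of a type are counts scaled to the total of each cell (CPM), averaged over its cells, while values given per mouse are CPM of the summed counts of the cells of that mouse. *Trac* was at 1416 CPM in EffCD4T, 803 in NveCD4T, 788 in MemCD4T, 709 in RegT, 604 in NveCd8T and 587 in MemCD8T. Summed by mouse, where 3 or more cells were present, EffCD4T had 1345 ± 319 CPM of *Trac* (SD, n = 9 mice) and NveCD4T 803 ± 202 (n = 8), with ranges of 817 to 1786 and 440 to 1151 that overlapped. NveCd8T, with 647 ± 308 (n = 9), and MemCD8T, with 666 ± 386 (n = 11), did not differ beyond their spread.

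*Trbc2* had at least 1 count in all 329 T-cells, and was the steadiest of the members among T-cell types. Its mean ran from 1861 CPM in MemCD8T through 2035 in EffCD4T, 2130 in NveCd8T, 2290 in NveCD4T and 2382 in MemCD4T to 2565 in RegT. The per-mouse ranges overlapped between neighbours in this order wherever at least 2 mice had 3 cells, such as 1417 to 2389 CPM in MemCD8T and 1419 to 2679 in EffCD4T. *Trbc1* was lower and more spread, at 280 CPM in MemCD4T, 581 in MemCD8T, 744 in NveCd8T, 993 in RegT, 1021 in EffCD4T and 1128 in NveCD4T. Its median over cells was far below its mean, for example 14.7 CPM in RegT and 205 in MemCD8T, because many cells had almost none. Per kilobase of exon, the mean level in NveCD4T was 3310 CPM for *Trbc2*, 1506 for *Trbc1* and 859 for *Trac*.

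In the 25 NK cells, *Trbc1* had a count in 21 cells (84%) and *Trbc2* in 20 (80%), but *Trac* in 5 (20%). The NK means were 594 CPM for *Trbc1*, 526 for *Trbc2* and 77.4 for *Trac*. In the 4 mice with at least 3 NK cells, *Trac* was at 0 to 3.64 CPM, *Trbc2* at 222 to 555 and *Trbc1* at 163 to 1461. *Trac* in these mice thus lay below every T-cell type, while the *Trbc1* range overlapped that of T-cells. Most of the *Trac* mean came from few cells, of which 3 had at least 10 counts, and a lone NK cell of mouse 1 reached 1231 CPM. The NK label was borne out by *Ncr1*, an activating receptor of NK cells, with a count in 22 of 25 cells, and by *Klrb1c*, which encodes NK1.1, in 23. The T-cell marker *Cd3d* was found in 4 of them and *Cd3e* in 2. Whether cells of another type contribute to the NK values was not tested.

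B-cells gave the background. Of 600 B-cells, 6 had a *Trac* count, 1 a *Trbc1* count and 4 a *Trbc2* count, and their mean levels were 0.10, 0.0033 and 0.015 CPM. *Trdc* behaved differently, with a count in 70 B-cells (11.7%), none of which reached 10 counts. The shares of CD4+ and CD8+ T-cell types with at least 1 *Trdc* count, 0 to 12.5%, were at or near this level, so a cell with fewer than 10 *Trdc* counts was read as background. A minimum of 10 counts was used for delta and gamma signal, which no B-cell reached but some T-cells and NK cells did.

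**Figure D1:**
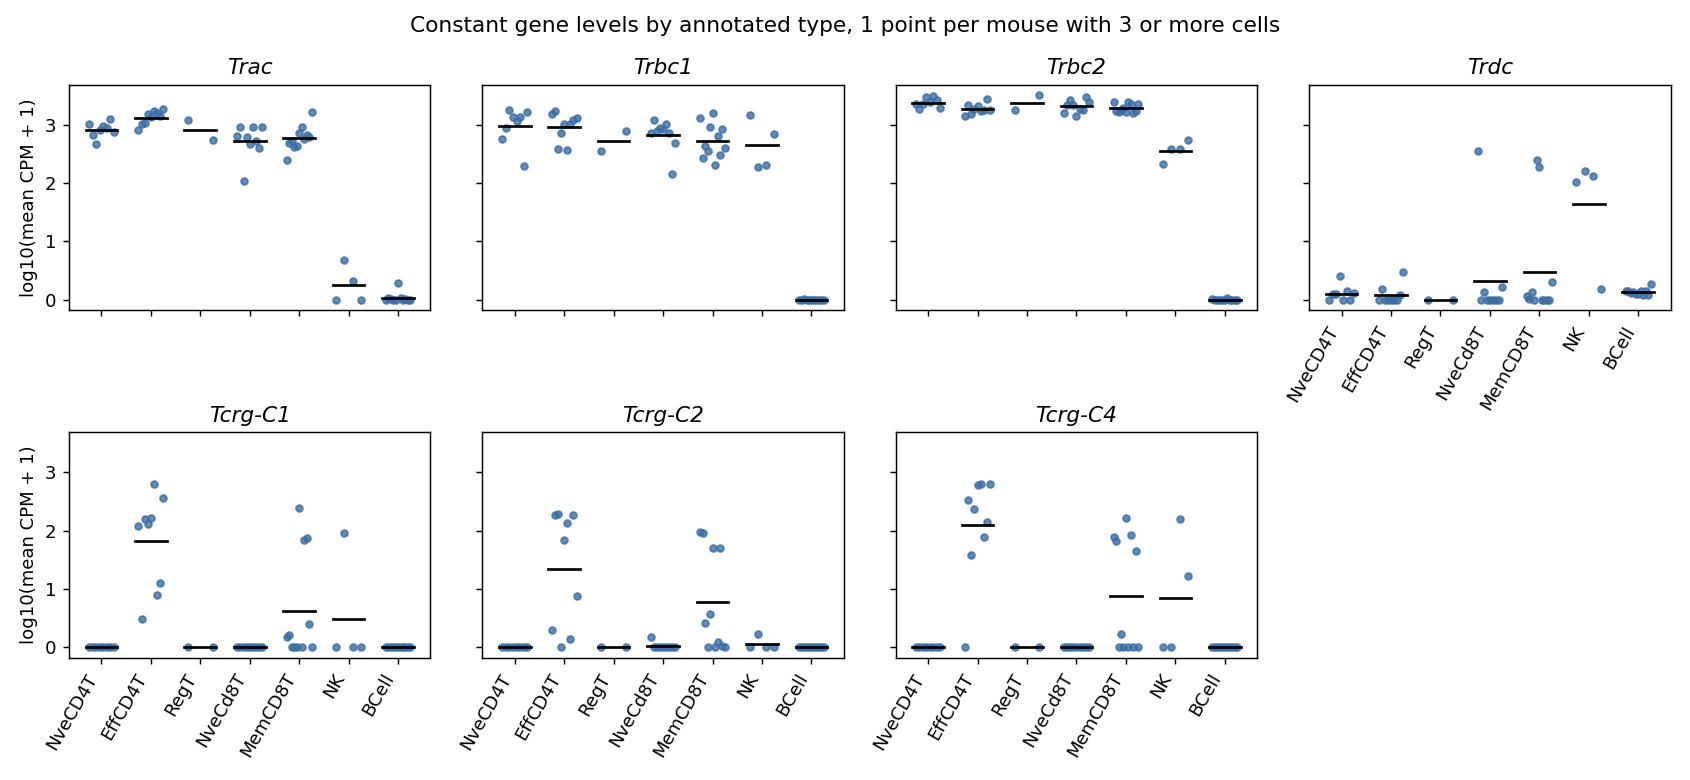
Mean level of each constant gene in 7 annotated types, as log10(mean CPM + 1) with the mean over single cells, with 1 point for each mouse that had 3 or more such cells and a bar at the mean of the points. *Trac*, *Trbc1* and *Trbc2* are high in all T-cell types, NK cells keep *Trbc1* and *Trbc2* with *Trac* at 0 to 3.90 CPM, and *Tcrg-C1*, *Tcrg-C2* and *Tcrg-C4* are at 0 in NveCD4T and RegT.

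The gamma constant genes were concentrated in EffCD4T cells. At least 10 counts of *Tcrg-C1*, *Tcrg-C2* and *Tcrg-C4* together were found in 23 of 45 EffCD4T cells (51.1%, 95% Wilson interval 37.0 to 65.0%), 13 of 106 MemCD8T (12.3%, 7.31 to 19.9%) and 4 of 25 NK cells (16.0%, 6.4 to 34.7%). No NveCD4T, MemCD4T, RegT, NveCd8T or B-cell reached this minimum, and 0 of 85 NveCD4T cells allows a share of up to 3.53% by a limit of 3 cells, or 4.32% by the Wilson interval. These intervals and limits cover counting error only, since the reads carry no molecular identifiers and cells of a mouse share their source. In EffCD4T, mean levels were 159 CPM for *Tcrg-C1*, 97.6 for *Tcrg-C2* and 290 for *Tcrg-C4*. Of the 45 cells, 13 had at least 10 counts of *Tcrg-C1*, 8 of *Tcrg-C2* and 15 of *Tcrg-C4*, and 12 had more than 1 of the 3.

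The gamma signal was seen in each mouse that had EffCD4T cells. It was present in 1 of 3 cells of mouse 1, 1 of 3 of mouse 2 and 2 of 3 of mouse 3, the oldest mice. It was present in 4 of 6 cells of mouse 21, 2 of 7 of mouse 22 and 5 of 11 of mouse 23 at 77 weeks, 2 of 3 of mouse 14 and 4 of 6 of mouse 15 at 36 weeks, and 2 of 3 of mouse 24 at 10 weeks. No EffCD4T cell had 10 *Trdc* counts, and 44 of the 45 had at least 10 counts of both *Trac* and the beta constant genes. Gamma variable segments (*Tcrg-V*) also had at least 10 counts in 21 of the 45 cells.

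The EffCD4T label was checked against marker genes, and the data went against part of it. *Cd4*, the co-receptor that the name implies, had a count in 8 of 45 cells (17.8%), compared with 40 of 85 NveCD4T cells (47.1%). *Klrb1c* had a count in 25 cells (55.6%) and *Maf*, a transcription factor of several T-cell subsets, in 35 (77.8%). *Zbtb16*, which encodes the factor PLZF, had a count in 6 (13.3%), and *Ncr1* in 0. Among the receptor segments, *Trav11d* had a count in 38 EffCD4T cells (84.4%), *Trav11* in 36 (80%) and *Traj18* in 37 (82.2%). In NveCD4T, 1 of 85 cells had a *Trav11* count, in MemCD8T 1 of 106 and in MemCD4T 2 of 8, and the same number of MemCD4T cells (25%) had counts of *Trav11d* and of *Traj18*. *Traj18* also had a count in 7 of 85 NveCD4T, 9 of 106 MemCD8T and 4 of 72 NveCd8T cells. As background, *Trav11* joined to *Traj18* is the alpha rearrangement of invariant natural killer T cells of the mouse. *Trav11* and *Trav11d* are near copies, so counts may be split between them, and no cell was renamed here. These segments were singled out after their values were seen.

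How many cells carried both segments depended on the minimum. With at least 10 counts of *Trav11* or *Trav11d* and of *Traj18*, 21 of the 45 cells had both, and with at least 1 count of each, 35 did. The stricter minimum was applied first and the looser one after its result was seen. At 10 counts, gamma signal was present in 13 of the 21 cells with both segments and in 10 of the 24 without. At 1 count, it was present in 21 of 35 cells with both and in 2 of 10 without. The mean *Trac* level was 2202 CPM against 727 at the stricter minimum and 1629 against 668 at the looser one. Cells with more *Trac* RNA may have more counts on the alpha segments too, and neither this nor its part in the difference was tested. Cells with both segments were present in all 9 mice with EffCD4T cells under either minimum.

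Delta and gamma signal in the same cell was rare. At least 10 counts of *Trdc* were found in 5 of 106 MemCD8T cells, 5 of 25 NK cells and 1 of 72 NveCd8T cells. Together with at least 10 gamma constant counts, this left 5 cells, of which 3 were named MemCD8T, from mice 14, 14 and 12, and 2 NK, from mice 22 and 12. The MemCD8T cells had 232, 298 and 553 *Trdc* counts, and the NK cells 84 and 198. Of the 3 MemCD8T cells, 2 had no *Cd8a* or *Cd8b1* count, while 1 of the 2 from mouse 14 had 224 and 249, beside 820 *Trac* counts. The delta variable segment *Trdv4* had at least 10 counts in 12 of 25 NK cells (48.0%), from 6 of 9 mice, against 1 of 106 MemCD8T and 0 of 85 NveCD4T cells. Only 5 NK cells had 10 *Trdc* counts. Of the cells with both signals, the MemCD8T and the NK cell of mouse 12 had 0 *Trac* counts. The other MemCD8T cell of mouse 14 had 72, and the NK cell of mouse 22 had 42. The MemCD8T cell of mouse 12 had 10 *Tcrg-C2* counts and none of *Tcrg-C1* or *Tcrg-C4*, so it only just met the minimum. Of the 13 MemCD8T cells with gamma signal, 10 had no delta signal. Cells were not called gamma delta T cells from these counts alone.

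**Figure D2:**
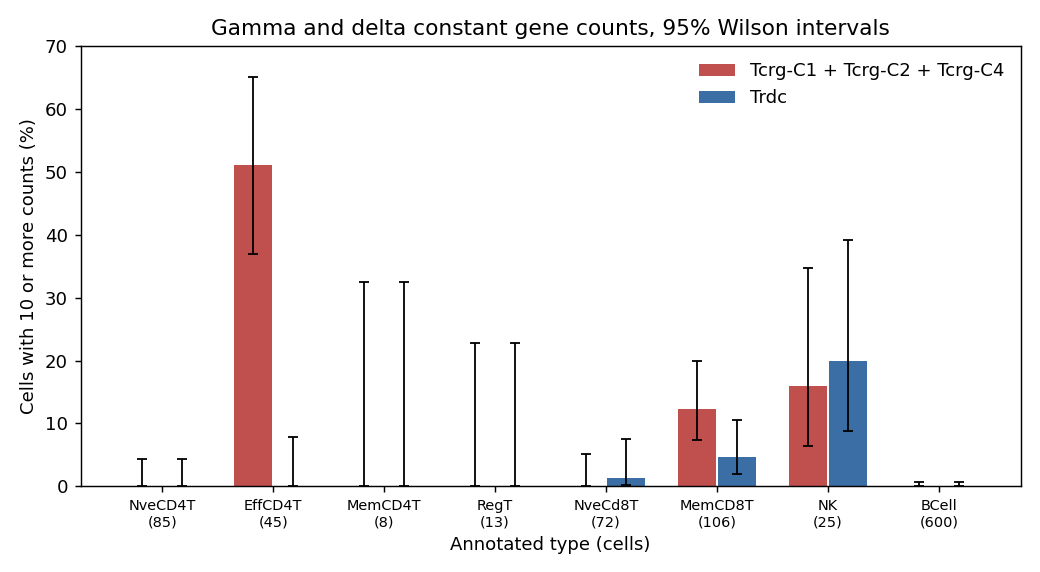
Share of cells with at least 10 counts of the 3 gamma constant genes together (red) or of *Trdc* (blue) in 8 annotated types, with 95% Wilson intervals and the number of cells below each name. EffCD4T stands at 51.1% for the gamma genes with 0 cells for *Trdc*, and NK cells at 16.0% and 20%.

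The balance of the beta constant genes differed with the joining segments a cell carried. Every one of the 329 T-cells had at least 10 counts of *Trbc1* and *Trbc2* together. The *Trbc1* share of these counts was at most 20% in 186 cells, at least 80% in 13 and in between in 130. It was at most 1% in 92 cells, whereas its highest value was 88.1%. The range thus reached the *Trbc2* end but not the *Trbc1* end.

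Cells were then split by joining segments, taking at least 5 counts of a cluster as present, a comparison that was added after the shape of the share was seen. In the 35 cells with *Trbj1* counts alone, the median *Trbc1* share was 65.9%, and in the 137 with *Trbj2* counts alone it was 0.918%. In the 122 cells with both it was 37.4%, and in the 35 with neither 1.34%. Per mouse, the median share of *Trbj1* cells was 83.1% in mouse 1 and 82.4% in mouse 2, of the oldest mice, 73.0, 65.2 and 81.3% in mice 21, 22 and 23 of 77 weeks, 75.6, 58.1 and 69.3% in mice 11, 14 and 15 of 36 weeks, and 51.0 and 50.3% in mice 12 and 24 of 10 weeks. That of *Trbj2* cells was 0.325 to 4.98% in the same mice, so that these medians did not overlap. Single cells did, since *Trbj1* cells had shares of 0 to 88.1%, with 2 of 35 at or below 20%, and *Trbj2* cells had shares of 0 to 61.3%, with 3 of 137 at or above 50%. The mean was 68.9 ± 12.5% (SD, n = 10 mice) against 1.40 ± 1.32%, a difference of 67.5 points that was higher in 10 of 10 mice (exact sign-flip permutation test, two-sided, p = 0.00195, the smallest these mice allow). Mouse 3 had no *Trbj1* cell, and mice 1 and 2 had 1 each. With the *Trbj2* segments lying downstream of *Trbc1*, the direction could be foreseen, and the split was chosen on the same data. The p-value is therefore given as a description and not as support.

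Cells were also called for 1 beta constant gene, *Trbc1* at a share of at least 80% and *Trbc2* at a share of at most 20%. Among the called cells, the share called *Trbc1* was 20% in mouse 1, 3.57% in mouse 2 and 0% in mouse 3, the oldest mice, 9.52, 0 and 4.76% in mice 21, 22 and 23, 10, 18.2 and 6.67% in mice 11, 14 and 15, and 8.33 and 5% in mice 12 and 24. The mean was 7.82 ± 6.50% (SD, n = 11). A planned test against 50% was run but is not used, since the calls were not symmetric: of the cells with *Trbj1* counts alone 10 of 35 reached the 80% needed for *Trbc1*, while 127 of 137 with *Trbj2* counts alone were at or below the 20% needed for *Trbc2*. With 90% in place of 80%, no cell was called *Trbc1* and the mean was 0%, so the share depends on the limits chosen.

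The 22 NK cells with at least 10 beta constant counts had a median *Trbc1* share of 62.6%. Of these, 10 had *Trbj1* counts alone, with a median share of 84.4%, and 3 had *Trbj2* counts alone, with a median of 0.709%. The NK cells came from 9 mice, and the difference from T-cells was not tested. Of the 29 CD8+ T-cells of mouse 2, 17 had at least 10 counts of the variable segment *Trbv19*, and their *Trbc1* share was 0.325 to 22.8%, with a median of 6.51%.

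**Figure D3:**
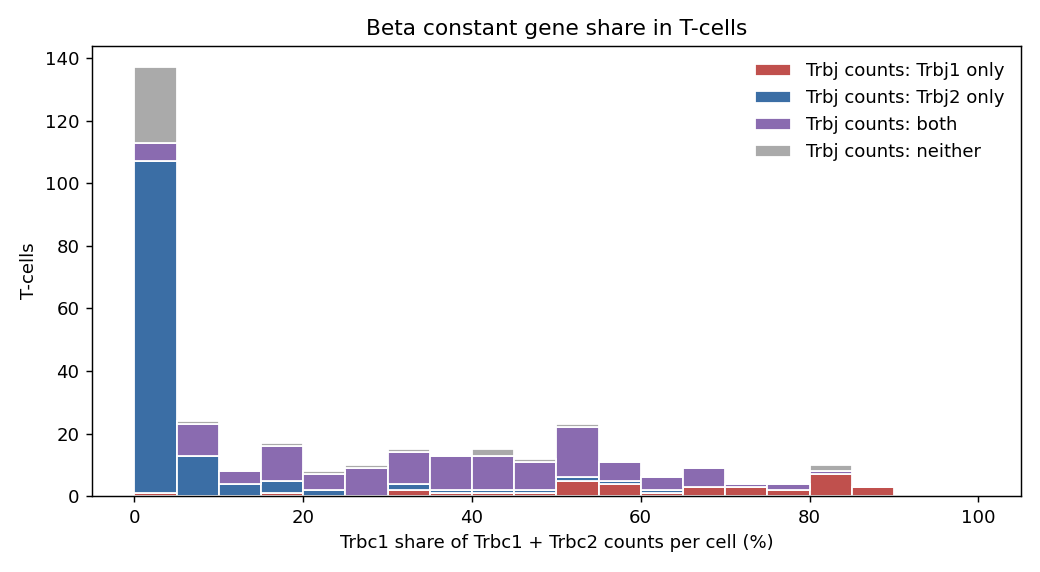
Number of T-cells by the *Trbc1* share of their *Trbc1* and *Trbc2* counts in bins of 5 points, coloured by the joining segments with at least 5 counts. Cells with *Trbj2* counts alone pile up below 5%, with a median of 0.918%, and cells with *Trbj1* counts alone lie higher, with a median of 65.9% and none above 88.1%.

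The study asked whether expression changes with age within a cell type, which was tested for the constant genes on counts summed per mouse. *Trac*, *Trbc1* and *Trbc2* passed the filter of detection in 25% of cells, whereas *Trdc* and the 3 gamma genes did not and were compared as shares of cells. In CD4+ T-cells, 0 of the 3 tested members passed an adjusted p of 0.1 for a slope on age, against 11 of 3265 genes tested (0.337%; 117 called by DESeq2, and 0 by edgeR without mouse 1, mouse 12 or EffCD4T cells), and 0 of 3 for the oldest against the younger mice, against 0 of 3265 (0%; 338 genes at an unadjusted p under 0.05, and 165 called by DESeq2). In CD8+ T-cells, 0 of 3 passed for the slope, against 1 of 3936 (0.0254%; 62 called by DESeq2), and 0 of 3 for the oldest mice, against 0 of 3936 (0%; 219 genes at an unadjusted p under 0.05, and 38 called by DESeq2). *Trbc2* had a count in every cell of both age groups, and *Trac* in 16 of 17 CD4+ T-cells of the oldest and 129 of 134 of the younger mice, and in 44 of 48 and 113 of 130 CD8+ T-cells.

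The annotated types were not spread evenly over age. Of the CD4+ T-cells of the oldest mice, 9 of 17 were EffCD4T (52.9%) and 2 NveCD4T (11.8%), against 36 (26.9%) and 83 (61.9%) of 134 in the younger mice. Of the CD8+ T-cells, 41 of 48 were MemCD8T (85.4%) in the oldest mice, against 65 of 130 (50%) in the younger. The part of this in the age differences was not tested beyond the fits without a type or within one.

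*Trbc2* in CD4+ T-cells was at 1419, 1941 and 1615 CPM in mice 1, 2 and 3, the oldest, 1931, 2302 and 2638 in mice 21, 22 and 23 of 77 weeks, 2256, 2295 and 2530 in mice 11, 14 and 15 of 36 weeks, and 1844 and 2141 in mice 12 and 24 of 10 weeks. The oldest mice held the lowest values but overlapped with the younger ones through mouse 2. The log2 difference of the oldest from the younger mice was -0.39 ± 0.15 (SE), with an edgeR quasi-likelihood p of 0.0262 before adjustment and 0.405 after. On lane 2 alone, a sequencing lane read with some doubt from the raw file names, which held all cells of the oldest mice, it was -0.16 ± 0.15 (adjusted p = 0.848). Without EffCD4T cells, an alternative added after the data were seen, it was -0.36 (edgeR adjusted p = 0.627). Within EffCD4T, *Trbc2* was at 1419, 2074 and 1560 CPM in mice 1, 2 and 3 and 1655 to 2679 in the younger mice, so that the groups overlapped.

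*Trac* in CD8+ T-cells was at 239.6, 434 and 568 CPM in mice 1, 2 and 3, 628, 727 and 575 in mice 21, 22 and 23, 274, 659 and 878 in mice 11, 14 and 15, and 538 and 1268 in mice 12 and 24. The groups overlapped. The log2 difference was -0.84 ± 0.44 (SE, edgeR adjusted p = 0.904) and the slope -0.11 ± 0.05 per 10 weeks (adjusted p = 0.781). In MemCD8T alone the slope was -0.17 (edgeR p = 0.00915 before adjustment and 0.830 after), without NveCd8T cells and mouse 2 it was -0.18 (0.0198 and 1), and in cells of the lowest class of red blood cell contamination given by the authors it was -0.05 (adjusted p = 1), while on lane 2 alone the difference was -0.44 ± 0.43 (adjusted p = 0.979). *Trac* in CD4+ T-cells was at 644 to 940 CPM in the oldest and 694 to 1209 in the younger mice, with a log2 difference of -0.23 ± 0.21 (edgeR adjusted p = 0.766).

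Within EffCD4T, the type with most *Trac*, its values did not overlap between the age groups, but the difference did not pass the test after adjustment. *Trac* was at 817, 1056 and 1023 CPM in mice 1, 2 and 3, and at 1339 to 1786 CPM in the 6 younger mice with 3 or more such cells. The log2 difference was -0.74 ± 0.18 (SE), with an edgeR p of 0.00216 before adjustment and 0.537 after, in a fit added once these levels had been seen. Of the 4 members tested there, which included *Tcrg-C4*, 0 passed, against 1 of 2484 genes (0.0403%), and 0 passed for the slope, against 0 of 2484 (0%; 151 genes at an unadjusted p under 0.05). Each of the oldest mice had 3 EffCD4T cells, and these had 3359 to 3902 genes detected per cell, against 2656 to 2973 in the younger mice. Of their cells, 4 of 9 had at least 10 counts of both *Trav11* or *Trav11d* and *Traj18*, against 17 of 36 in the younger mice. By the lane read from the file names, all EffCD4T cells of the oldest mice were on lane 2. Among the younger mice, lane 2 held those of mouse 21 and 2 of 3 of mouse 14, and none of mice 15, 22, 23 and 24. The parts of the lane and of the number of genes detected in the difference were not tested.

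The remaining members had log2 differences of -0.11 (*Trbc1*, CD4+), -0.06 (*Trbc1*, CD8+) and -0.15 (*Trbc2*, CD8+), with edgeR adjusted p-values of 0.949, 0.999 and 0.999. The age difference of CD8+ less that of CD4+ T-cells, taken within each of the 11 mice on the log2 scale, was -0.45 for *Trac*, 0.08 for *Trbc1* and 0.37 for *Trbc2* (exact permutation test, two-sided, p = 0.327, 0.903 and 0.158, adjusted 0.491, 0.903 and 0.473). The mean number of genes detected per cell was higher in the oldest mice, at 3219 to 3824 in CD4+ T-cells against 2512 to 2825 in the younger mice. For CD8+ T-cells the ranges were 3909 to 4210.5 and 2738 to 3212, so the age groups did not overlap in either class. With this number as a covariate, the CD4+ log2 difference was -0.05 ± 0.39 (SE) for *Trbc2* and 0.06 ± 0.56 for *Trac*. In CD8+ T-cells it was 0.28 for *Trac* and 0.87 for *Trbc2* (edgeR adjusted p of 0.999, 0.999, 1 and 1 in this order). Because the covariate itself separates the age groups, these fits cannot tell age from the number of genes detected. No conclusion is drawn from them.

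**Figure D4:**
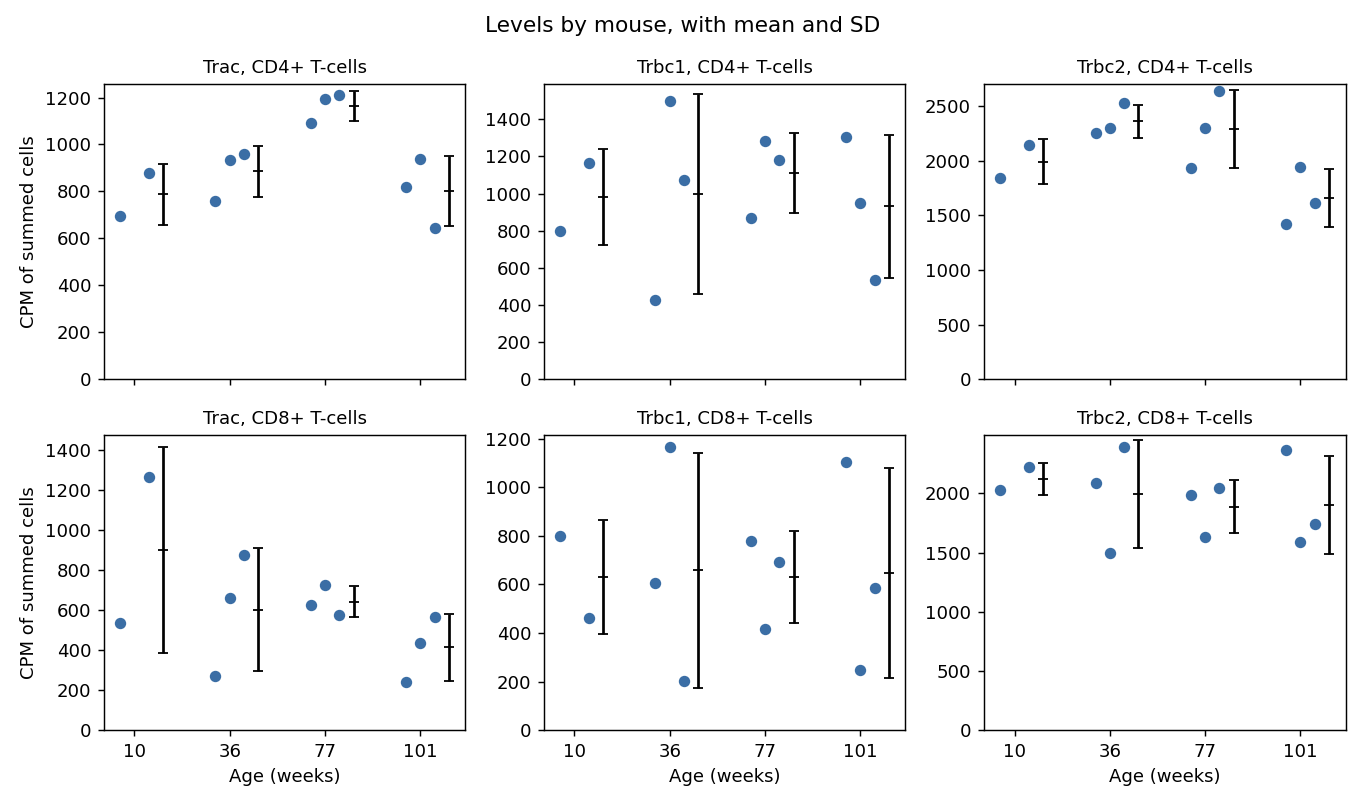
*Trac*, *Trbc1* and *Trbc2* in CD4+ (top) and CD8+ T-cells (bottom) as CPM of the summed cells of each mouse, by age in weeks, with the mean and SD of each age beside the points. All 6 panels show overlap between the oldest and the younger mice, with *Trbc2* in CD4+ T-cells at 1419 to 1941 CPM in the oldest mice and 1844 to 2638 before.

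The receptor complex and its proximal signalling, a list of 30 genes including the CD3 chains, the co-receptors and kinases such as *Lck* and *Zap70*, was looked at in the same fits. Of its genes, 24 were tested in CD4+ and 25 in CD8+ T-cells, and 0 passed in either direction in each of the 4 comparisons. At an unadjusted edgeR p under 0.05, 2, 4, 1 and 2 genes were found for the CD4+ slope, the oldest CD4+, the CD8+ slope and the oldest CD8+, beside 9.0, 10.4, 6.2 and 5.56% of all genes tested. The median log2 difference of the oldest mice was -0.29 in CD4+ T-cells, against -0.06 for all genes tested, and -0.15 in CD8+ T-cells, against -0.04. The smallest adjusted p was 0.302, for *Cd3d*, a signalling chain of the receptor, in CD4+ T-cells.

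The shares of cells with delta or gamma constant counts were compared after each cell was thinned to 150000 counts. In CD4+ T-cells a *Tcrg-C* count was found in 33.3, 12.5 and 33.3% of the cells of mice 1, 2 and 3, which had 3, 8 and 6 cells, and in 0 to 29.4% of those of the 8 younger mice. The mean was 26.4 ± 12% (SD, n = 3) against 14.3 ± 10.6% (n = 8), a difference of 12.1 points (exact permutation test, two-sided, p = 0.139, adjusted over 4 comparisons 0.388). The share in B-cells was 0%. Without EffCD4T cells, no CD4+ T-cell had such a count in either group, and EffCD4T cells made up more of the CD4+ T-cells in the oldest mice, as given above. Within EffCD4T, 4 of 9 cells of the oldest (44.4%) and 19 of 36 of the younger mice (52.8%) had at least 10 gamma counts. These are pooled cells without thinning, a different measure from the shares per mouse, and the part of the cell types was not tested. Without mouse 2, the difference was 19.0 points (exact permutation p = 0.0444, unadjusted).

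In CD8+ T-cells a *Tcrg-C* count was found in 14.3, 6.90 and 8.33% of the cells of mice 1, 2 and 3 and in 0 to 23.1% of those of younger mice (exact permutation p = 0.739, adjusted 0.830). For *Trdc* the CD8+ means were 6.70% against 4.96% (exact permutation p = 0.830, adjusted 0.830) and the CD4+ means 0% against 4.78% (p = 0.194 by the same exact permutation test, adjusted 0.388). The share of B-cells with a *Trdc* count after thinning was 5.67%, which lies inside the range over mice of 0 to 14.3% in CD4+ and 0 to 23.1% in CD8+ T-cells. These shares count background and the few CD8+ T-cells with at least 10 *Trdc* counts alike. On lane 2 alone, the differences were 19.3 points for *Tcrg-C* in CD4+, -0.688 for *Tcrg-C* in CD8+, -3.27 for *Trdc* in CD4+ and -2.79 for *Trdc* in CD8+ T-cells.

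The genes most alike in pattern were sought over 57 combinations of mouse and type from 8 types, which share libraries and depth, among 10326 genes. Pearson's r, given here as a description, was highest for *Trac* with *Cd3d* (0.974), *Thy1* (0.947) and *Cd3g* (0.940). *Trbc1* and *Trbc2* were most like each other (0.972), a value that shared reads can touch, and next *Ms4a4b* (0.948 and 0.962) and *Lat* (0.929 and 0.961). *Tcrg-C1* was most like *Tnfsf10* (0.747), *Itga1* (0.739) and *Fgl2* (0.682), *Tcrg-C2* like *Itga1* (0.698), *Tnfsf10* (0.659) and *Cxcr3* (0.638), and *Tcrg-C4* like *Fgl2* (0.778), *Itga1* (0.724) and *Xcl1* (0.721). For *Trdc* the values were lower, with *Wbp1l* (0.501), *Klf12* (0.490) and, lower still, *Gm18134*.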

How the data were processed

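The authors trimmed the RNA reads with Trim Galore 0.6.7, mapped them to GRCm38 with STAR in two-pass mode, counted them per Ensembl gene with featureCounts and deposited whole-number counts without normalization. Handling of reads with more than 1 place was not given in the sources used here. Mouse, age and cell type were taken by cell identifier from the supplementary data of the study. A number in the raw read file names was read as the lane, which is uncertain. The members and lists were chosen with earlier results of these data known.

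Counts were summed per mouse with at least 3 cells of a class and tested with edgeR 4.0.16 (TMM, robust quasi-likelihood, Benjamini-Hochberg adjusted p of 0.1), on genes detected in at least 25% of cells and in at least 5 cells at 2 ages. Thinning used seed 20240831. Share tests were exact permutations over mice. The text names the 7 members, the list of 30 genes by counts, receptor segments by family, and the 3 genes most alike to each member. *Trav11*, *Trav11d*, *Traj18*, *Trdv4* and *Trbv19* were chosen after values were seen. On simulated sums with 200 genes changed by a log2 of 2, the fit recovered 34.5% (slope) and 70% (oldest against younger) in CD4+ T-cells and 41.5 and 69.5% in CD8+ T-cells. Alternatives included DESeq2 1.42.0, other filters, subsets and each mouse left out. Tools were R 4.3.3, Python 3.11.15, numpy 2.4.6, scipy 1.17.1, pandas 2.3.3 and matplotlib 3.10.9. Methylation values were not used here.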

Additional observations from a re-analysis of the deposited data

Results flagged for a closer look

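Mouse 24 of 10 weeks stood apart from the other 7 younger mice in the share of CD4+ T-cells with a *Trdc* count, with 14.3% against 0 to 6.67%, or 2 of 14 cells. No CD4+ T-cell of any mouse had 10 *Trdc* counts, so by the minimum used in the report these cells are read as background. Its B-cells also had the highest *Trdc* level, 0.889 CPM against 0.215 to 0.422 in the other mice, and the part of this was not tested. Mouse 14 of 36 weeks stood apart in the share of CD8+ T-cells with a *Trdc* count, with 23.1% against 0 to 10.7%. In each, the gap to the nearest mouse was above Dixon's 95% critical value for 8 samples. Of 10 groups looked at, these were the 2 found, and chance flags about 1 in 20 where values are normally distributed. These shares rest on few cells and several are 0, so the rate of chance flags among them is not known. Mouse 14 also held 2 of the 5 cells with both delta and gamma signal.

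Outside the cells analysed, 4 of 74 cells that the supplementary data do not list had at least 10 counts of *Trbc1* and *Trbc2* together, and so had 1 of the 3 listed cells without a type. No B-cell of 600 reached this level. The 74 cells had 12 to 205000 counts, with a median of 47132.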

How the results depend on the processing

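For the age contrasts, no paired analysis was possible because each mouse had 1 age and the labels give 1 group without shared replicate numbers. The *Trbj* difference and the comparison of CD8+ with CD4+ T-cells were paired within mice. The contrast of oldest against younger mice in NveCD4T alone could not be fitted. *Trac*, *Trbc1* and *Trbc2* passed the threshold in no alternative run, and the *Trbj* difference kept direction and call in all of its own. The causes of the changes listed here were not tested.

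The CD4+ slope called 11 genes, against 117 by DESeq2, 5 with detection in 10% of cells, 6 in contamination class 0, 1 in NveCD4T, and 0 with no filter, on lane 2, in mice with at least 8 cells, with genes detected per cell as a covariate, without EffCD4T and in EffCD4T alone. The oldest against younger CD4+ contrast called 0, against 165 by DESeq2, 25 with detection in 10% of cells, 33 without EffCD4T, 23 in mice with at least 8 cells, 3 with no filter and with the covariate, and 1 in contamination class 0, on lane 2 and in EffCD4T alone. The CD8+ slope called 1, against 62 by DESeq2 and 0 with no filter, in MemCD8T, in contamination class 0, on lane 2, in mice with at least 8 cells, with the covariate and without NveCd8T and mouse 2. The oldest CD8+ contrast called 38 by DESeq2. Leaving out 1 mouse gave 0 to 15, 0 to 39, 0 to 2 and 0 to 1 calls in these 4 comparisons. The CD4+ slope called 0 without mouse 1 or 12, 2 without mouse 24 and 5 to 7 without mouse 2, 3, 14 or 15. The oldest CD4+ contrast called 6, 39, 28 and 1 without mouse 1, 2, 3 or 11. The CD8+ slope called 0 without mouse 1, 3, 14 or 24 and 2 without mouse 2 or 21, and the oldest CD8+ contrast 1 without mouse 3.

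Log2 values that changed sign, none past the threshold, were as follows. For the CD4+ slope, *Trbc1* was -0.020 with no filter, -0.010 with detection in 10%, -0.096 in NveCD4T and -0.033 without EffCD4T, *Trac* -0.093 in EffCD4T alone, and *Trbc2* 0.037 in NveCD4T, 0.0030 in mice with at least 8 cells and 0.017 with the covariate. For oldest CD4+, *Trbc1* was 0.21 on lane 2 and 0.18 in EffCD4T alone, and *Trac* 0.0077 in mice with at least 8 cells and 0.058 with the covariate. For CD8+ T-cells without the *Trbv19* cells of mouse 2, *Trbc1* was 0.016 (slope) and 0.20 (oldest) and *Trbc2* 0.00028 (oldest). For oldest CD8+, *Trbc1* was 0.098 without NveCd8T and mouse 2, and with the covariate *Trbc2* was 0.87 and *Trac* 0.28. In the contrasts of oldest against younger mice the covariate did not overlap between the groups, so sign changes with it are not interpreted. Leaving out 1 mouse gave *Trbc1* -0.019 to 0.026 (CD4+ slope), -0.058 to 0.024 (CD8+ slope), -0.44 to 0.17 (oldest CD4+) and -0.67 to 0.33 (oldest CD8+). For *Trac* it gave 0.0036 to 0.040, -0.14 to -0.057, -0.34 to -0.085 and -1.14 to -0.56 in the same order, and for *Trbc2* -0.047 to -0.012, -0.045 to -0.021, -0.50 to -0.29 and -0.32 to -0.041.

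The CD8+ *Trdc* difference was -2.11 points with at least 5 counts, -3.01 in MemCD8T and -2.79 on lane 2, and the CD8+ *Tcrg-C* difference -4.05 in MemCD8T and -0.688 on lane 2. Leaving out 1 mouse gave -3.24 to 5.10 and -0.317 to 4.07 points, and 8.60 to 19.0 for CD4+ *Tcrg-C*. Cells with delta and gamma signal numbered 9 at 1 count. Mice with 3 to 8 CD4+ T-cells at the oldest age limit these comparisons.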
